A study of Ophiorrhiza pumila with 6 samples.

Results

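The early iridoid enzymes of *Ophiorrhiza pumila* hairy roots lead from isopentenyl diphosphate to the first iridoid acid. The 10 contigs described here were those that the study assigned, by sequence similarity to *Catharanthus roseus*, to 7 enzymes: isopentenyl diphosphate isomerase (IPPI), geranyl diphosphate synthase (GPPS, 3 contigs), geraniol synthase (GES), geraniol 10-hydroxylase (G10H), 10-hydroxygeraniol oxidoreductase (10-HGO), iridoid synthase (IS) and iridoid oxidase (IO, 2 contigs). They were 10 of 59855 contigs of the *de novo* assembly, belonged to 8 assembly genes, and all 10 passed the filter on low counts together with 33315 contigs in all. RNA was sequenced from 6 hairy root lines induced with *Agrobacterium rhizogenes* and kept for 3 weeks, where every line came from its own transformation and gave 1 library. All lines carried an RNA interference construct: GUSi against the bacterial *GUS* gene as the control (lines GUSi-9 and GUSi-10), ERF1i against *OpERF1* (ERF1i-7 and ERF1i-19) and ERF2i against *OpERF2* (ERF2i-2 and ERF2i-3), so every group had n = 2 and no group was untransformed. The comparisons asked how silencing either AP2/ERF transcription factor changed the pathway to camptothecin, and none was made against intact plants.

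IPPI interconverts the 5-carbon building blocks that the plastid MEP pathway supplies, and GPPS joins them into geranyl diphosphate. GES releases geraniol, G10H, a cytochrome P450, hydroxylates it, and 10-HGO oxidizes the product to a dialdehyde that IS, a reductase, closes into the iridoid ring. IO, another P450, then makes 7-deoxyloganetic acid, which later enzymes turn into secologanin and, with tryptamine, into strictosidine, the precursor of monoterpenoid indole alkaloids such as camptothecin. In *C. roseus* leaves these early genes are expressed in the internal phloem-associated parenchyma and respond to bHLH transcription factors of clade IVa.

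The targeted genes were read first. The *OpERF1* contig c15284_g1_i1 stood at 206 and 134 FPKM in the GUSi lines and at 3.46 and 18.9 FPKM in ERF1i-7 and ERF1i-19, with 698 and 584 FPKM in the libraries labelled ERF2i-2 and ERF2i-3. The *OpERF2* contig c17706_g2_i1 stood at 15.2 and 8.33 FPKM in the GUSi lines, at 9.69 and 28.0 FPKM in the ERF1i lines, at 3.29 FPKM in the library labelled ERF2i-2 and at 14.8 FPKM in the library labelled ERF2i-3. The latter lay within the range of the controls in FPKM, and in TMM-scaled CPM (5.19) above both controls (4.55 and 2.50). By quantitative PCR, however, the paper reported strong suppression of *OpERF2* in both ERF2i lines that it sequenced. The construct carries a stretch of *OpERF2*, and whether its own reads count toward this contig was not tested, so these values may not be the level of the target alone. ERF2i calls below are also given without that library, an alternative that for contigs outside the 10 was chosen after seeing the data. Over all contigs, the edgeR calls in ERF2i against GUSi were 4393 higher and 3293 lower with that library and 1852 higher and 981 lower without it. The sample labels were followed for the numbering of the 2 ERF2i lines, which other parts of the deposited record number the other way round, and group values do not depend on this. Libraries held 11517610 to 13199946 expected counts, and the 10 contigs had from 68 to 5674 counts in a library. The counting error alone at the lowest count of a contig came to 1.97% for 10-HGO and to 12.1% for GPPS c32644_g1_i2.

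Levels of the 10 contigs in the control roots were compared in FPKM, fragments per kilobase of contig scaled to the library total. IPPI was the most abundant at 314 and 216 FPKM in GUSi-9 and GUSi-10, followed by 10-HGO c29140_g1_i1 at 199 and 187 FPKM. IO c39235_g1_i1 stood at 171 and 153 FPKM, IS at 141 and 154 FPKM, and G10H at 143 and 124 FPKM. The ranges of IO and IS overlapped, as did those of IS and G10H, so these neighbours were not separated by the spread between lines. GES, the enzyme that commits the carbon to geraniol, was lower at 37.3 and 34.1 FPKM. The GPPS contig c32644_g1_i3 stood at 15.8 and 16.3 FPKM and the second IO contig, c27825_g1_i2, at 15.2 and 12.5 FPKM. The lowest were GPPS c32644_g1_i1 at 5.49 and 4.24 FPKM and GPPS c32644_g1_i2 at 4.29 and 4.47 FPKM, whose ranges overlapped. The deposited descriptions named IPPI, GPPS, GES, G10H and IS as such or closely, whereas the 10-HGO contig was described as an alcohol dehydrogenase and both IO contigs as cytochrome P450 76A2.

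**Figure D1:**
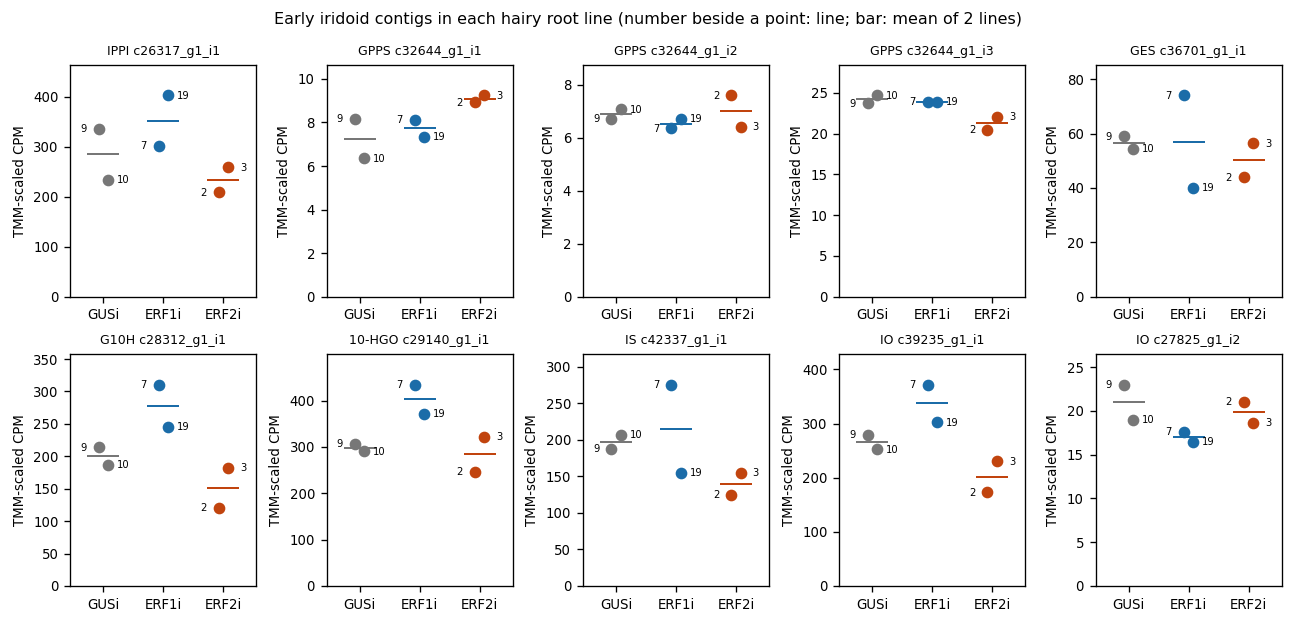
TMM-scaled CPM (y axis, from 0, own scale in each panel) of the 10 early iridoid contigs in the GUSi, ERF1i and ERF2i lines (x axis); each point is 1 library with its line number, and the bar is the mean of 2 lines. G10H, 10-HGO and IO c39235_g1_i1 were higher in both ERF1i lines than in both ERF2i libraries, while each of the 3 GPPS contigs stayed within 1.45-fold.

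Silencing of *OpERF2* was compared with GUSi in CPM scaled by TMM factors, which correct library totals for RNA composition, the scale of all differences below. None of the 10 contigs passed the threshold of an adjusted p under 0.05 (edgeR quasi-likelihood test, Benjamini-Hochberg over all contigs), beside 23.1% of all tested contigs in either direction, 13.2% higher and 9.88% lower. At an unadjusted p under 0.05 the count was likewise 0, DESeq2 called 0, and limma-trend on log2(FPKM + 1) called 2. Without TMM factors, as in FPKM, the median difference of all contigs was -0.24, so FPKM of ERF2i libraries read low beside CPM, and the calls over all contigs went from 4393 higher and 3293 lower to 2932 higher and 7331 lower. Differences of the members were negative for 8 contigs and positive for 2, with a median of -0.18 on the log2 scale against -0.0097 over all tested contigs.

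IS was 188 and 207 CPM in GUSi-9 and GUSi-10 and 124 and 155 CPM in the libraries labelled ERF2i-2 and ERF2i-3. The groups did not overlap, with means of 197 ± 13.6 and 139.8 ± 21.8 CPM (SD, n = 2), and the log2 difference was -0.50 (95% interval -1.11 to 0.12, edgeR adjusted p = 0.207). The IS difference passed the threshold in a fit of only the 4 GUSi and ERF2i libraries (edgeR adjusted p = 0.0257) and when ERF1i-7 or ERF1i-19 was left out (edgeR adjusted p = 0.0278 and 0.0309), with a size of -0.49 to -0.51. IO c39235_g1_i1 was 279 and 252 CPM in the GUSi lines and 173 and 230.3 CPM in the libraries labelled ERF2i-2 and ERF2i-3. Both ERF2i values lay below both controls, and the difference was -0.40 (SE 0.17, interval -0.81 to 0.01, edgeR adjusted p = 0.141). G10H was 214 and 186 CPM in the GUSi lines and 120.4 and 182 CPM in the libraries labelled ERF2i-2 and ERF2i-3. The second of these was close to GUSi-10, and the difference was -0.41 (interval -0.91 to 0.10, edgeR adjusted p = 0.210). Without the library labelled ERF2i-3 the differences were -0.75 for G10H, -0.64 for IO c39235_g1_i1 and -0.68 for IS (edgeR adjusted p = 0.0831, 0.0967 and 0.262), still short of the threshold.

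The members upstream of G10H and the oxidoreductase differed less. IPPI was 336 and 234 CPM in the GUSi lines and 209 and 259 CPM in the libraries labelled ERF2i-2 and ERF2i-3. Its groups overlapped, the interval was -0.81 to 0.24, and without GUSi-9 the difference was 0.0015. GES was 59.0 and 54.4 CPM in the GUSi lines and 43.8 and 56.4 CPM in the libraries labelled ERF2i-2 and ERF2i-3, again with overlap (interval -0.82 to 0.47). 10-HGO was 306 and 290.4 CPM in the GUSi lines and 246 and 322 CPM in the libraries labelled ERF2i-2 and ERF2i-3, on either side of the controls (log2 difference -0.07, interval -0.45 to 0.30). The second IO contig, c27825_g1_i2, was 23.0 and 19.0 CPM in the GUSi lines and 21.1 and 18.7 CPM in the libraries labelled ERF2i-2 and ERF2i-3, with a difference of -0.08 (interval -0.40 to 0.24). Of the 10 contigs, 4 were lower in both ERF2i libraries than in both GUSi lines and 1 was higher, where 34.2% and 34% of all tested contigs were so placed. The share of the members that were lower was thus near that of all tested contigs, and the share that were higher was below it.

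The 3 GPPS contigs are alternative sequences of 1 assembly gene, among which RSEM divides shared reads, so their separate levels are less certain than their sum. GPPS c32644_g1_i1 was 8.15 and 6.35 CPM in the GUSi lines, 8.12 and 7.34 CPM in the ERF1i lines and 8.92 and 9.24 CPM in the libraries labelled ERF2i-2 and ERF2i-3. GPPS c32644_g1_i3 was 23.7 and 24.7 CPM in the GUSi lines, 23.9 in each ERF1i line and 20.5 and 22.1 CPM in the libraries labelled ERF2i-2 and ERF2i-3. These contigs thus lay on opposite sides of the controls in the ERF2i libraries, with log2 differences from GUSi of 0.32 (interval -0.09 to 0.74) and -0.19 (interval -0.43 to 0.06). GPPS c32644_g1_i2 stayed between 6.35 and 7.59 CPM in all libraries. Summed over the assembly gene, the difference between ERF2i and GUSi was -0.0038 (interval -0.21 to 0.21), and between ERF1i and GUSi it was -0.0022 (interval -0.21 to 0.21). Contig c32644_g1_i3 made up 61.8% and 65.2% of the summed GPPS FPKM in the GUSi lines, 62.5% and 63.3% in the ERF1i lines, and 55.7% and 58.8% in the libraries labelled ERF2i-2 and ERF2i-3.

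Silencing of *OpERF1* was compared with the same GUSi libraries, so the sets of differences are not independent of each other. None of the 10 contigs passed the threshold (edgeR), beside 4.06% of all tested contigs in either direction, 2.65% higher and 1.4% lower. At an unadjusted p under 0.05 the count was 1 in edgeR and 2 in DESeq2, which also called 0 after adjustment, as did limma-trend. The median difference of the members was 0.11, against -0.00012 over all tested contigs, with 7 positive and 3 negative.

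10-HGO was 434 and 371 CPM in ERF1i-7 and ERF1i-19, above the 306 and 290.4 CPM of the GUSi lines. The log2 difference was 0.43 (SE 0.16, interval 0.06 to 0.81, edgeR adjusted p = 0.185). G10H was 311 and 246 CPM in the ERF1i lines, above the 214 and 186 CPM of GUSi, with a difference of 0.48 (interval -0.03 to 0.98, edgeR adjusted p = 0.266). IO c39235_g1_i1 was 372 and 302 CPM in the ERF1i lines, above the 279 and 252 CPM of GUSi (0.34, interval -0.07 to 0.75, edgeR adjusted p = 0.321). These 3 contigs were the members whose ERF1i lines both lay above both controls, a placement found in 25.4% of all tested contigs. IPPI was 302 and 403 CPM in ERF1i-7 and ERF1i-19 and overlapped GUSi (0.31, interval -0.21 to 0.83). The second IO contig, c27825_g1_i2, went the other way from IO c39235_g1_i1, at 17.6 and 16.5 CPM in the ERF1i lines, both below the controls (-0.30, interval -0.62 to 0.02, edgeR adjusted p = 0.277).

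GES and IS split the ERF1i lines. GES was 74.0 CPM in ERF1i-7 and 40.0 CPM in ERF1i-19, above and below the controls, and its group difference from GUSi was 0.0079 (interval -0.63 to 0.65). IS was 276 CPM in ERF1i-7 and 155 CPM in ERF1i-19, likewise above and below the controls, with a group difference of 0.13 (interval -0.48 to 0.74). Without ERF1i-7 the differences were -0.51 for GES and -0.35 for IS (edgeR adjusted p = 0.125 and 0.257), so neither direction held between the ERF1i lines.

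**Figure D2:**
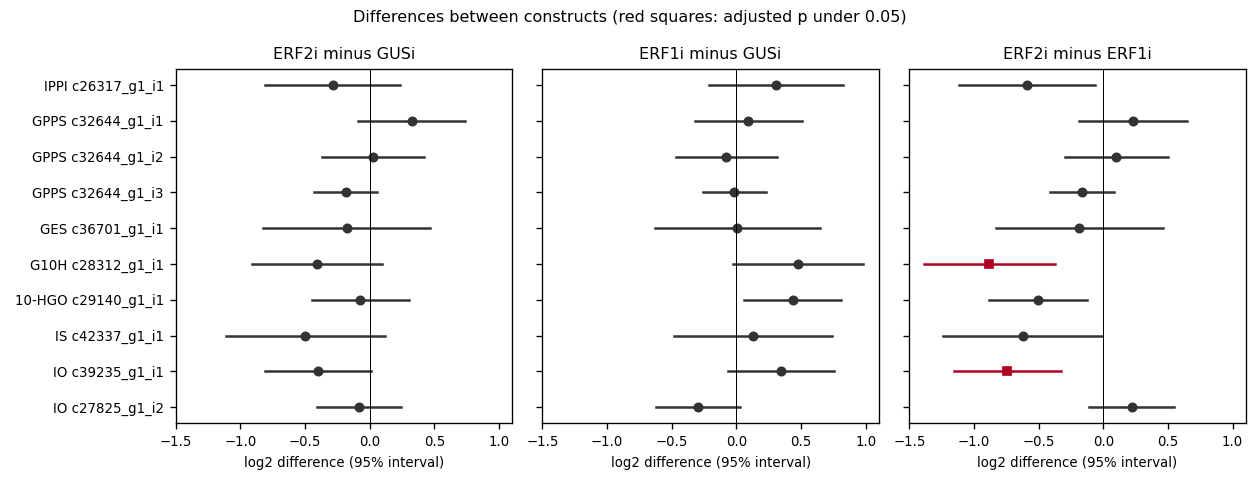
Log2 differences of the 10 contigs (y axis, pathway order) between constructs in the edgeR fit of all 6 libraries, with 95% intervals as bars (x axis); red squares mark an adjusted p under 0.05. The only such contigs are G10H and IO c39235_g1_i1 in the comparison of ERF2i with ERF1i.

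The silenced groups were then compared with each other, using the same fit. G10H and IO c39235_g1_i1 were lower in ERF2i than in ERF1i, the only members to pass the threshold. Of all tested contigs 19.6% passed in either direction, 9.01% lower and 10.6% higher, so the share of the 10 members called was near that of all contigs. The third P450 contig of the members, IO c27825_g1_i2, went the other way (0.22, edgeR adjusted p = 0.302). G10H was 1.84-fold lower, with 151 ± 43.3 CPM in ERF2i and 278 ± 45.7 CPM in ERF1i (SD, n = 2; log2 difference -0.88, SE 0.21, interval -1.39 to -0.38, edgeR adjusted p = 0.0311). IO c39235_g1_i1 was 1.67-fold lower, with 202 ± 40.5 CPM in ERF2i and 337 ± 49.1 CPM in ERF1i (log2 difference -0.74, SE 0.17, interval -1.15 to -0.33, edgeR adjusted p = 0.0281). Neither differed from GUSi by the test in either silenced group, and in both contigs the GUSi lines lay between the ERF1i and ERF2i values.

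Both calls depended on single libraries. Without ERF1i-7 the edgeR adjusted p was 0.0658 for G10H and 0.0596 for IO c39235_g1_i1, and without the library labelled ERF2i-2 it was 0.165 and 0.174. Without the library labelled ERF2i-3, whose *OpERF2* contig was not low, G10H still passed (-1.22, SE 0.21, edgeR adjusted p = 0.0401) and IO c39235_g1_i1 did not (-0.97, SE 0.19, edgeR adjusted p = 0.0519). In the fit of only the 4 ERF1i and ERF2i libraries the adjusted p of G10H was 0.0517, and without a filter on low counts it was 0.0539. The direction was negative for both contigs in all alternatives tried.

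10-HGO was also lower in both ERF2i libraries than in both ERF1i lines (-0.51, interval -0.88 to -0.13, edgeR adjusted p = 0.0667), and passed with no scaling beyond the total count (edgeR adjusted p = 0.0241) and in both limma-trend fits. IPPI was placed likewise (-0.59, interval -1.11 to -0.07, edgeR adjusted p = 0.106). IPPI passed when ERF1i-7 was left out (edgeR adjusted p = 0.0463). IS overlapped, since ERF1i-19 and the library labelled ERF2i-3 both stood at 155 CPM (-0.62, interval -1.24 to -0.01, edgeR adjusted p = 0.134), and without ERF1i-19 it passed (-0.98, edgeR adjusted p = 0.0080). GES, the GPPS contigs and IO c27825_g1_i2 had differences from -0.19 to 0.23, with intervals that held 0. In all, 5 contigs were lower and 2 were higher in both ERF2i libraries than in both ERF1i lines, where 31.7% and 32.4% of all tested contigs were so placed.

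Several members followed each other across the 6 libraries. GES, G10H, 10-HGO, IS and IO c39235_g1_i1 all had their highest CPM in ERF1i-7, as did 13.2% of all tested contigs. All but GES of these 5, and also IPPI and GPPS c32644_g1_i3, were lowest in the library labelled ERF2i-2, as were 23.3% of all tested contigs. G10H varied most, with 2.58-fold between these 2 libraries, followed by IS with 2.22-fold and IO c39235_g1_i1 with 2.15-fold. Within a library, IO c39235_g1_i1 stayed near G10H, with a log2 ratio of FPKM of 0.25 and 0.30 in the GUSi lines, 0.12 and 0.16 in the ERF1i lines, and 0.39 and 0.21 in the libraries labelled ERF2i-2 and ERF2i-3. The log2 ratio of 10-HGO to G10H was highest in ERF2i, at 0.98 and 0.78 against 0.47 and 0.59 for GUSi and 0.44 and 0.55 for ERF1i, the ERF2i values being those of the libraries labelled ERF2i-2 and ERF2i-3. These ratios do not depend on how libraries are scaled. IS varied more against G10H, from -0.50 in ERF1i-19 to 0.31 in GUSi-10, and GES from -2.71 in ERF1i-19 to -1.54 in the library labelled ERF2i-2.

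**Figure D3:**
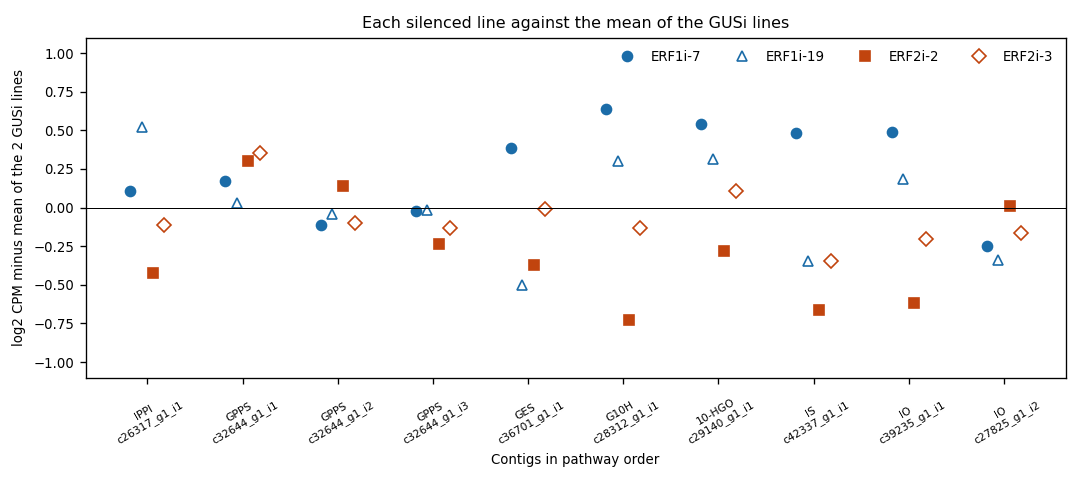
Log2 CPM of each silenced line minus the mean of both GUSi lines (y axis; 0 is the GUSi mean) for the 10 contigs in pathway order (x axis); filled and open symbols are the 2 lines of a construct. From GES to IO c39235_g1_i1 the filled circles (ERF1i-7) lie at the top, and the filled squares (ERF2i-2) at the bottom except at GES, where ERF1i-19 is lowest.

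The spread between lines of a construct was described as the absolute log2 difference in CPM. Its median over the 10 members was 0.14 for GUSi, 0.26 for ERF1i and 0.31 for ERF2i, beside 0.19, 0.24 and 0.19 over all tested contigs. In GUSi the widest member was IPPI (0.52 higher in GUSi-9). In ERF1i they were GES (0.89) and IS (0.83), both higher in ERF1i-7, whereas IPPI was 0.42 higher in ERF1i-19. In ERF2i the widest was G10H (0.59), and 8 of 10 members were higher in the library labelled ERF2i-3 than in that labelled ERF2i-2.

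No contig sequence was used here, and the sequences shown are the quantitative PCR primers that the study designed for *OpG10H*, the enzyme whose contig differed most between the silenced groups. By quantitative PCR of *OpG10H* and other pathway genes, the paper reported moderate suppression of these genes in ERF2i. From a heatmap of FPKM it also described a downward trend in ERF2i for genes of the MEP and secologanin-strictosidine pathways. The primers are printed 5′ to 3′, and whether they match c28312_g1_i1 was not tested.
OpG10H forward: tgggatggccaaggaagtc
OpG10H reverse: ggaattgatcggctggagaa

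Other contigs had annotations like those of a member, and their values are given beside it. Of the contigs matched by description or best hit to a hydroxygeraniol dehydrogenase or oxidoreductase, c44683_g1_i1, described as geraniol dehydrogenase, was the most abundant. It stood at 387 and 371 FPKM in the GUSi lines, 464 and 333 FPKM in the ERF1i lines, and 670.2 and 665 FPKM in the libraries labelled ERF2i-2 and ERF2i-3. Both ERF2i libraries lay above all others, and c44683_g1_i1 was higher in ERF2i than in GUSi (log2 difference in CPM 1.05, SE 0.18, edgeR adjusted p = 0.0076) and than in ERF1i (0.90, edgeR adjusted p = 0.0156). Without the library labelled ERF2i-3 the differences were 1.03 and 0.89 and neither passed (edgeR adjusted p = 0.0541 and 0.0855). Its FPKM was 1.94 and 1.99 times that of the 10-HGO member in the GUSi lines, 1.74 and 1.45 times in the ERF1i lines, and 4.92 and 3.77 times in the libraries labelled ERF2i-2 and ERF2i-3. It was 1 of 4 tested contigs of this kind, and the other 3 did not pass in any comparison. Among them c31297_g1_i1, described as 10-hydroxygeraniol oxidoreductase and picked out for that description, differed from GUSi by 0.13 in ERF2i (edgeR adjusted p = 0.788).

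In ERF2i, 13.2% of all tested contigs were higher than in GUSi, as was 1 of 2 tested contigs annotated like IS. This was c17607_g1_i1, described as progesterone 5-beta-reductase, the enzyme family to which iridoid synthase belongs, at 190.5 and 163 FPKM in the GUSi lines, 160.3 and 186 FPKM in the ERF1i lines, and 247 and 272 FPKM in the libraries labelled ERF2i-2 and ERF2i-3. The difference in CPM was 0.78 from GUSi (SE 0.13, edgeR adjusted p = 0.0083) and 0.74 from ERF1i (edgeR adjusted p = 0.0125), beside the -0.50 and -0.62 of IS itself. Without the library labelled ERF2i-3 they were 0.69 and 0.65 and neither passed (edgeR adjusted p = 0.0667 and 0.0866). Of 7 contigs annotated like GPPS, 3 were lower in ERF2i than in GUSi and 3 than in ERF1i. Of all tested contigs, 9.88% and 9.01% were lower in these comparisons. The median differences of the 7 were -1.53 from GUSi and -1.53 from ERF1i without the library labelled ERF2i-3. The most abundant, c33886_g1_i1, a geranylgeranyl pyrophosphate synthase family protein, was not among the lower contigs (-0.21, edgeR adjusted p = 0.363). The contigs described as geranyl diphosphate synthase large subunit passed in no comparison. In ERF2i against GUSi the intervals were -2.04 to 0.44 for c17006_g1_i1, -1.80 to 0.39 for c32449_g1_i1 and -1.93 to -0.08 for c32449_g1_i2. Their edgeR adjusted p was 0.309, 0.309 and 0.110. Their differences from GUSi without the library labelled ERF2i-3 were -1.66, -1.05 and -1.53. Chosen after its values were seen, c47376_g1_i1 stood at 33.1 and 29.5 FPKM in the GUSi lines, 41.8 and 28.8 FPKM in the ERF1i lines, and 7.29 and 11.0 FPKM in the libraries labelled ERF2i-2 and ERF2i-3 (-1.55 from GUSi, edgeR adjusted p = 0.0065, and -1.90 with 0.0248 without the library labelled ERF2i-3). A second contig of the assembly gene of the lower IO member, c27825_g1_i1, passed in no comparison (-0.28 in ERF2i against GUSi, edgeR adjusted p = 0.132). The patterns for IPPI, GES, G10H and IO, which did not include the words cytochrome P450 76A2, took no other contig. By those words, looked for after the annotations were seen, c26850_g1_i1 and c33154_g3_i1 were also like IO (76A2-like). The latter was higher in ERF2i than in GUSi (1.09, edgeR adjusted p = 0.0447), but not without the library labelled ERF2i-3 (0.94, edgeR adjusted p = 0.205), and the former passed in no comparison.

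**Figure D4:**
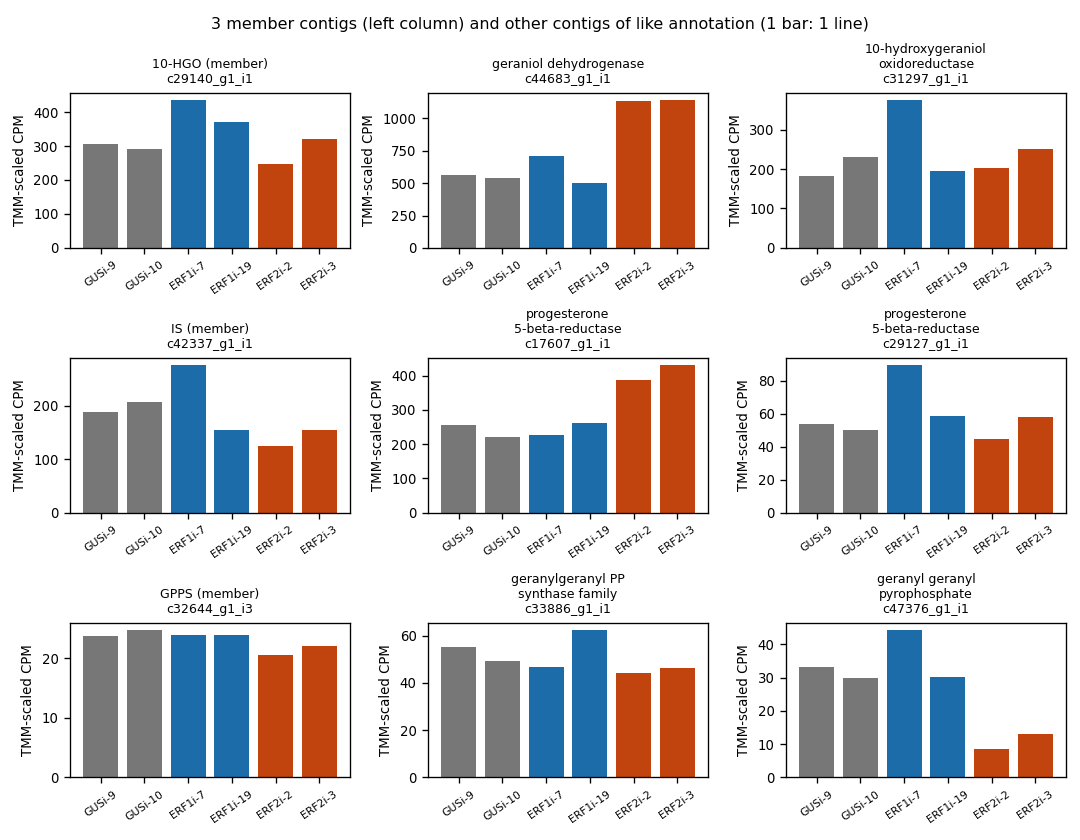
TMM-scaled CPM (y axis, from 0, own scale in each panel) in the 6 libraries (x axis, 1 bar each) of the member contigs for 10-HGO, IS and GPPS (left column) and of contigs with like annotations (middle and right columns). The bars of c44683_g1_i1 and c17607_g1_i1 are tallest in the ERF2i libraries and those of c47376_g1_i1 shortest. The ERF2i bars of GPPS c32644_g1_i3 are also the shortest of their panel, at 20.5 and 22.1 CPM.

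The steps before and after the early iridoid enzymes were counted from the study's own assignments. Of 12 MEP pathway contigs, 2 were lower in ERF2i than in GUSi, beside 9.88% of all tested contigs, and the median difference was -0.12. They were DXR c33486_g7_i1, which makes the first committed MEP intermediate (-1.04, edgeR adjusted p = 0.0036), and the kinase CMK c28782_g1_i1 (-0.38, edgeR adjusted p = 0.0472). DXR also passed without the library labelled ERF2i-3 (edgeR adjusted p = 0.0365), and CMK did not (edgeR adjusted p = 0.0900). Of 18 contigs for the later steps to secologanin and strictosidine, 8 were lower in ERF2i than in GUSi, with a median of -0.83, beside the member median of -0.18. The 2 with the lowest p were described as glucosyltransferases of 7-deoxyloganetic acid, the product of IO: c22992_g2_i1 (-1.36, edgeR adjusted p = 0.0033) and c22992_g3_i1 (-1.54, edgeR adjusted p = 0.0053). Of other contigs so described, c18121_g1_i1 and c38432_g1_i1 were also lower (differences of -1.31 and -1.99 without the library labelled ERF2i-3). The most abundant of this description, c18473_g1_i1, was not (-0.09, edgeR adjusted p = 0.644). In ERF1i against GUSi 2 of these 18 were higher, and in ERF2i against ERF1i 11 were lower, with medians of 0.10 and -0.87. Of all tested contigs, 2.65% and 9.01% were so called. With the library labelled ERF2i-3 left out, the medians of the 18 were -1.12 against GUSi and -1.14 against ERF1i, beside -0.83 and -0.87 with all libraries. That fit leaves a single ERF2i library, so calls among the 18 are not counted for it. The differences from GUSi were then -1.26 for c22992_g2_i1 and -1.79 for c22992_g3_i1. The difference between the early and the later contigs was not itself tested.

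Partners of the early enzymes were described in the same way. P450 enzymes need a reductase, and of 25 contigs matched as P450 reductases, cytochrome b5 or their kin, 5 were higher and 4 lower in ERF2i than in GUSi. Over all tested contigs, 13.2% were higher and 9.88% lower in that comparison. The pattern also took cytochrome b561 proteins, and both contigs with the lowest p were of that kind, c26774_g2_i1 (-1.25, edgeR adjusted p = 0.0013) and c26774_g2_i3 (-1.19, edgeR adjusted p = 0.00092). The NADPH:cytochrome P450 reductase c30914_g1_i1, named after its values were seen, was higher (0.72, edgeR adjusted p = 0.0044), at 127 and 130.0 FPKM in the GUSi lines and 182 and 181 FPKM in the libraries labelled ERF2i-2 and ERF2i-3. Of 7 contigs annotated as bHLH25-like or a near relative, which belong to clade IVa in *Arabidopsis*, 3 were lower in ERF2i than in GUSi. Those with the lowest p were c26496_g1_i1 (-1.31, edgeR adjusted p = 0.00084), at 67.8 and 59.9 FPKM in the GUSi lines and 21.3 and 22.6 FPKM in the libraries labelled ERF2i-2 and ERF2i-3, and c5180_g1_i2 (-1.74, edgeR adjusted p = 0.0085). Of 11 tested prenyl diphosphate synthases outside the members, some of which the GPPS pattern also took, 2 were lower: c25825_g1_i1 (-1.18, edgeR adjusted p = 0.0049) and c48032_g1_i1 (-2.82, edgeR adjusted p = 0.0069). The latter was near the floor, with 18 and 21 expected counts in the GUSi lines and 2 in each ERF2i library. With the library labelled ERF2i-3 left out, the counts in ERF2i against GUSi were 2 higher and 3 lower for the reductase list, 2 lower for the bHLH list and 1 lower for the prenyl synthases. Of the partners named, c48032_g1_i1 alone then missed the threshold (edgeR adjusted p = 0.0622).

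Tissue markers and the transformation itself also moved with the groups, and their part in these results was not tested. The summed FPKM of 32 xylem contigs was 160.1 to 172 in ERF2i, below the 233 to 309 of GUSi and the 274 to 411 of ERF1i, and that of 21 phloem contigs was 156 to 167 in ERF1i, below the 234 to 241 of GUSi and the 244 to 245 of ERF2i. Of the 18 tested phloem contigs, 3 were higher and 4 lower in ERF2i than in GUSi, beside 13.2% and 9.88% of all tested contigs. Their median was -0.42, so the near-equal sums of these groups do not describe the single contigs. The sum of 45 endodermis contigs overlapped between groups, at 729 to 938 for GUSi, 662 to 967 for ERF1i and 715 to 743 for ERF2i. That of 103 photosynthesis contigs, 44 of them at 0 in all libraries, was 361 to 448 in ERF1i, above the 201 to 228 of GUSi and the 184.5 to 243 of ERF2i. The rolB-like T-DNA contig c30113_g1_i1, a mark of hairy roots, was read in every line at 24.3 to 58.6 FPKM. Of 10 tested T-DNA contigs, 7 were lower in ERF1i than in GUSi, at or near 0 in both ERF1i lines, beside 1.4% of all tested contigs lower. The sum of the list was 258 to 432 FPKM in ERF1i, below the 1147 to 1984 FPKM of GUSi and the 1498 to 2482 FPKM of ERF2i. This T-DNA difference and the *OpERF1* construct cannot be told apart in comparisons with ERF1i. In whole roots, fewer cells of a type and less RNA per cell cannot be told apart either.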

How the data were processed

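Strand-specific libraries of hairy roots were sequenced as paired ends on a HiSeq instrument. The authors removed adapters, low-quality reads and reads under 50 bp, aligned the rest with Bowtie2 2.0 (per the submitters' processing notes) to a *de novo* assembly, and quantified contigs by RSEM. The RSEM version and whether counting used strand are not given in the sources read. As deposited, the authors' tables hold expected counts, which are read pairs per contig without normalization, and FPKM, which are scaled to effective contig length and library total but not by TMM. Descriptions came from the deposited annotation table, whose FPKM columns equalled those of the library tables (59855 contigs, tolerance 0.0051), with the ERF2i numbering exchanged.

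Expected counts were rounded and filtered by group (minimum count 10, minimum total 15), and differences were tested with edgeR 4.0.16 in R 4.3.3 (quasi-likelihood, TMM, 6 libraries in 3 groups, 3 residual degrees of freedom, Benjamini-Hochberg over 33315 contigs). The threshold was an adjusted p of 0.05, and SE was the absolute log2 difference divided by the root of F. Line differences used log2 CPM with a prior count of 2. The p-values rest on the spread between 2 lines per construct, pooled over the 3 groups. edgeR also draws this spread toward that of other contigs (median of 4.00 prior degrees of freedom). The procedure was tested on simulated data. Alternatives used DESeq2 1.42.0, limma 3.58.1, other scalings and filters, sums per assembly gene and left-out libraries.

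Members came from the study's pathway assignments; other lists were patterns matched to descriptions and best hits. Members and lists were chosen with earlier results of these data known. Named contigs were the members, the contigs of their assembly genes, the most abundant contig per like-annotation list, the 2 with the lowest p in ERF2i against GUSi per other list (marker lists are given by sums and counts), *OpERF1*, *OpERF2* and the 5 contigs whose profile over the libraries was closest to that of GES, G10H, 10-HGO, IS and IO. Named outside this rule, after their values or annotations were seen, were c31297_g1_i1, c47376_g1_i1, c30914_g1_i1, c26850_g1_i1, c33154_g3_i1 and the T-DNA contig c30113_g1_i1. So were the large-subunit contigs c17006_g1_i1, c32449_g1_i1 and c32449_g1_i2, and the glucosyltransferase contigs c18121_g1_i1, c18473_g1_i1 and c38432_g1_i1. The counting errors given as percentages leave out the spread between lines.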

Additional observations from a re-analysis of the deposited data

How the results depend on the processing

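No paired analysis was possible because every line came from its own transformation and nothing in the labels pairs lines between groups. With 2 lines per construct, the 95% intervals limit what could be detected, and at the lowest count of 68 the counting error alone was 12.1%. In ERF2i against GUSi, 0 contigs passed, and 2 did with no scaling beyond the total count (GPPS c32644_g1_i3, edgeR adjusted p = 0.0234, and IO c39235_g1_i1, 0.0311), with limma-trend on log2(FPKM + 1) and with limma-trend on log2(FPKM + 0.1). Under those settings the median of all contigs was -0.24, -0.20 and -0.23, against -0.0097, and IO c39235_g1_i1 unscaled, at -0.63, was -0.39 relative to that median. In the fit of only the 4 libraries compared 1 passed, and with a library left out 0 to 1. In ERF1i against GUSi 0 passed under every alternative. In ERF2i against ERF1i 2 passed, but 0 at a log2 difference of at least 1, 1 without a filter on low counts and 1 in the fit of only the 4 libraries compared, and 0 to 3 with a library left out, where the lone library is assumed to vary like the other groups. There 3 passed, 10-HGO being the third, with no scaling and in both limma-trend fits.

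Signs changed in these cases. GPPS c32644_g1_i2 went from 0.02 to -0.21, -0.17 and -0.20 in ERF2i against GUSi, and from 0.10 to -0.059, -0.049 and -0.061 in ERF2i against ERF1i, with no scaling, limma-trend with 1 and limma-trend with 0.1. Under the same settings GES went from 0.0079 to -0.063, -0.12 and -0.13 in ERF1i against GUSi. With a library left out, the ranges in ERF2i against GUSi were -0.52 to 0.0015 for IPPI, -0.11 to 0.13 for GPPS c32644_g1_i2, -0.30 to 0.10 for 10-HGO and -0.21 to 0.066 for IO c27825_g1_i2. In ERF1i against GUSi they were -0.080 to 0.28 for GPPS c32644_g1_i1, -0.050 to 0.0067 for GPPS c32644_g1_i3, -0.51 to 0.38 for GES and -0.35 to 0.48 for IS, and in ERF2i against ERF1i -0.031 to 0.21 for GPPS c32644_g1_i2 and -0.56 to 0.32 for GES. The causes were not tested.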

Other observations

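Profiles like that of the early pathway were looked for among 18850 contigs with a description and a mean of at least 5 CPM. The reference was the mean centred log2 CPM of GES, G10H, 10-HGO, IS and IO c39235_g1_i1, which was 0.06 and -0.01 in the GUSi lines, 0.53 and 0.02 in ERF1i-7 and ERF1i-19, and -0.51 and -0.09 in the libraries labelled ERF2i-2 and ERF2i-3. The 5 closest, by Pearson r over the 6 libraries, were c36605_g1_i1, an alpha/beta hydrolase (0.994), the uncharacterized c24464_g1_i1 (0.992), the mitochondrial pyruvate carrier-like c21681_g1_i2 (0.992), the gibberellin dioxygenase-like c33969_g1_i1 (0.989) and the O-methyltransferase c30352_g1_i1 (0.981). An r above 0.95 was reached by 48 contigs. The 6 points share the constructs and the scaling of libraries, and the contigs were picked for their likeness, so these are descriptions. Of the members outside the reference, IPPI had an r of 0.53, IO c27825_g1_i2 of -0.41, and the GPPS contigs c32644_g1_i1, c32644_g1_i2 and c32644_g1_i3 of -0.25, -0.80 and 0.73. Members of the reference, which help to set it, ran from 0.74 for GES to 0.96 for IO c39235_g1_i1. The closest contig, c36605_g1_i1, stood at 127 and 118 FPKM in the GUSi lines, 169 and 108 FPKM in the ERF1i lines, and 68.8 and 91.7 FPKM in the libraries labelled ERF2i-2 and ERF2i-3. It passed the threshold in no comparison.

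Lists drawn up after the annotations had been seen covered the kin of the P450 and synthase members. Of 14 contigs of the cytochrome P450 76 family outside the members, 2 were higher and 4 lower in ERF2i than in GUSi. Over all tested contigs, 13.2% were higher and 9.88% lower. The lowest p belonged to c26859_g1_i1, at 14.9 and 10.6 FPKM in the GUSi lines and 72.6 and 59.9 FPKM in the libraries labelled ERF2i-2 and ERF2i-3 (log2 difference in CPM 2.60, edgeR adjusted p = 0.0025), and to c33441_g2_i4 (-1.94, edgeR adjusted p = 0.0064). Of 11 monoterpene synthases, 3 were higher, all alternative sequences of 1 myrcene synthase-like assembly gene, with c33164_g1_i4 and c33164_g1_i5 at 0.52 and 0.51 (edgeR adjusted p = 0.0355 and 0.0348). With the library labelled ERF2i-3 left out, c26859_g1_i1 alone of these P450 and synthase contigs passed in ERF2i against GUSi (2.71, edgeR adjusted p = 0.0234).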
